A study of Brassica napus with 6 samples.

Results

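Droughted seeds of oilseed rape (Brassica napus) were compared between day 40 and day 50 after flowering, the later step of the sampled seed development. The comparison rests on 2 of the 6 libraries of the study, chosen by their labels, with 1 library on each day. The droughted plants had been under drought stress from the initial flowering stage and gave seeds on days 30, 40 and 50. Control plants, grown under the same rain shelter with normal management, gave seeds on the same days, also 1 library each. Per the labels, 6 lines were grown. Which of them gave each library is not named, and no label says that plants were pooled or that a library was repeated. Every difference between days is therefore a difference between 2 libraries, with no replicate and no test.

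A maturing rapeseed embryo fills with storage proteins and oil before the seed dries, and transcripts for these reserves come to make up a large part of seed RNA. Later in maturation the reserve genes give way to genes for desiccation tolerance and dormancy. Oilseed rape is an allotetraploid, with an A and a C subgenome that hold related copies of most genes. The files do not pair their gene IDs with names, and 0 of them were found in the RefSeq table for the Da-Ae assembly. The genes are thus described by level, length, course and subgenome, the labelled tissue could not be set against marker genes, and no reserve or stress gene is identified. By the rule for IDs without names, 2 genes that stood higher and 2 that stood lower at day 50 are printed.

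The drought library of day 40 held 10314859 counted reads, the lowest total of the 6, and that of day 50 held 15024986. A read was seen for 56614 genes at day 40 and 58555 at day 50. At the depth of day 40, 57046 genes would be expected at day 50, so most of this gap goes with depth. Levels are given as scaled CPM, CPM after the libraries were scaled with TMM factors (a trimmed mean of the gene ratios between libraries). A level of 5 scaled CPM, the minimum used below, was 39.3 reads at day 40 and 63.9 at day 50. The day 40 drought library stood apart from the other libraries in a trend with gene length, described below, and every value of the step uses that library. Values without it follow at the results they touch.

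The step from day 40 to day 50 was wide in droughted seeds and, with TMM scaling, spread over both directions. Of 26757 genes with a mean of at least 5 scaled CPM over the pair, 7238 were at least 2-fold apart, or 27.1%. At day 50, 3792 genes stood at least 2-fold higher (14.2%) and 3446 at least 2-fold lower (12.9%). At least 4-fold differences were seen for 824 genes higher and 942 lower, or 3.08% and 3.52%. At least 16-fold differences were seen for 86 genes higher and 71 lower. In control seeds over the same days, 3061 of 26607 genes were at least 2-fold apart, or 11.5%, with 1690 higher (6.35%) and 1371 lower (5.15%). Across genes the log2 ratios had a standard deviation of 1.08 in droughted seeds and 0.72 in control seeds. The split of the drought step depended on scaling and on the genes counted. With TMM, 52.4% of the genes that were 2-fold apart stood higher at day 50, against 65.1% with library totals alone. It was 47.7% with totals without the 100 most abundant genes and 47.3% with the length trend removed. Other settings ran from 50.3% (minimum of 1 scaled CPM) to 54.6% (minimum of 20). Under TMM with the minimum taken over all 6 libraries, 3337 genes stood higher and 4137 lower. Which direction held more genes was thus not settled. Library totals alone moved the median log2 ratio of all genes from 0.06 to 0.23. With the control library of day 40 in place of the drought library, 4569 genes stood higher and 3974 lower in droughted seeds of day 50. That pair differs in treatment as well as in day, here and wherever this replacement is used below, so its counts are no measure of the day step alone. The level minimum was also applied anew with that library, so the genes counted are not the same set.

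Complete loss or gain of a transcript was rare. With no read in 1 drought library, 28 genes reached at least 5 scaled CPM at day 50 only and 7 at day 40 only. The highest of these stood at 15.6 and 13.4 scaled CPM, and 0 genes reached 20. In control seeds the counts were 0 and 3. In seed tissue, fewer cells of a type and less RNA per cell cannot be told apart, here or in the results that follow.

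The most abundant transcripts lost share in droughted seeds between day 40 and day 50, while in control seeds they gained. The 10 most abundant genes of each drought library held 24.6% of reads at day 40 and 14.4% at day 50, a loss of 10.1 points. In control seeds they held 12.3% and 19.4%, a gain of 7.11 points. The 100 most abundant genes of each library went from 40.1% to 30.1% in droughted seeds and from 23.2% to 34.2% in control seeds. The 95% exact binomial interval reached at most 0.0299 points to either side of each share, which covers counting error only. Reads also spread over more genes: 511 genes held 50% of the reads of the drought library at day 40 and 1120 at day 50. In control seeds that number went the other way, from 2133 to 988.

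**Figure D1:**
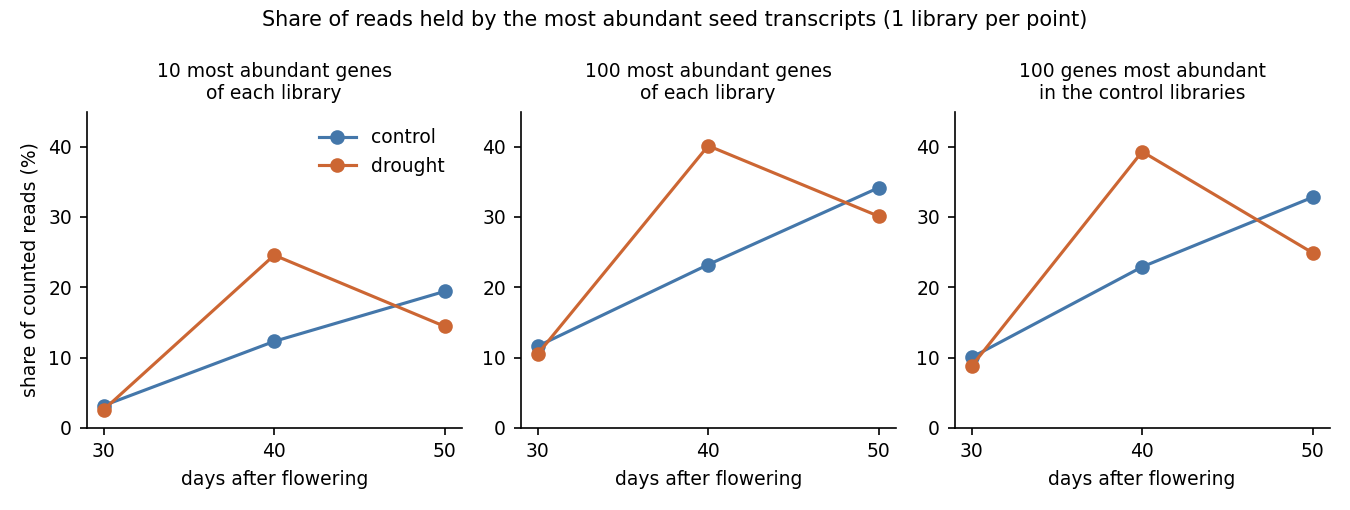
Share of counted reads in percent (y axis) against days after flowering (x axis) for control and drought libraries, 1 library per point, in 3 gene sets. The drought line peaks at day 40 in each panel, at 24.6%, 40.1% and 39.3%, whereas the control line is highest at day 50.

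A set chosen on one of the compared libraries tends to lose rank in the other, so the same loss was measured in genes chosen without the drought libraries. The 100 genes with the highest mean share over the 3 control libraries held 8.78%, 39.3% and 24.9% of drought reads at days 30, 40 and 50. The value of day 50 was 14.4 points below that of day 40. In the control libraries these genes held 10.03%, 22.9% and 32.8%. The day 40 value was thus above control, and those of days 30 and 50 were under it. The choice used the control libraries, which tends to raise the control shares. Drought values under control can thus follow in part from the choice. Of the 100 genes, 79 lost share in droughted seeds after day 40. Of the 1000 genes chosen in the same way, which include them, 642 did. With library totals alone, which compare share, the median log2 ratio of all genes at the minimum level was 0.23, so most of those gained share. On the scaled level, 48 of the 100 stood at least 2-fold lower at day 50 and 2 at least 2-fold higher, with a median log2 ratio of -0.89. Over the 26757 genes of the pair the median was 0.06, with 12.9% at least 2-fold lower and 14.2% at least 2-fold higher.

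The loss was smaller below the 100 leading genes. Genes ranked 1 to 10 by control share had a median log2 ratio of -0.74 in droughted seeds. Those ranked 11 to 100 had a median of -0.97, and 45 of the 90 stood at least 2-fold lower. Genes ranked 101 to 1000 had a median of -0.51, and 307 of 900 stood at least 2-fold lower against 81 higher. Over the 26757 genes of the pair, 12.9% stood at least 2-fold lower and 14.2% higher. Genes ranked 1001 to 5000 had a median of -0.11, and those ranked 10001 to 20000 one of -0.01. Median gene length was 966 bases for ranks 1 to 10, 1443 for 11 to 100 and 1654 for 101 to 1000. For ranks 1001 to 5000 it was 1808, and for 10001 to 20000 it was 1680. The rank classes thus also differed in length, and the parts of rank and length were not separated. The share gained went to genes of middle and low rank. Genes ranked 101 to 1000 held 14.6% of drought reads at day 40 and 17.0% at day 50, although their median scaled level was lower. Genes ranked 1001 to 5000 went from 18.4% to 22.2%. This gain is a change in share, which any loss by the leading genes forces on the rest.

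The shorter of the leading genes lost more in the median than the longer ones, with overlapping ranges. Of the 10 most abundant genes of the day 40 drought library, 6 were 519 to 561 bases long and 4 were 1374 to 1640 bases long. All 10 lost share by day 50 in droughted seeds, and all 10 gained share in control seeds. They were chosen for their high level at day 40 in droughted seeds, so part of their loss can follow from the choice. The 6 short genes together held 14.9% of drought reads at day 40 and 6.59% at day 50, with log2 ratios from -1.74 to -0.74 and a median of -1.37. The 4 long genes held 9.67% and 7.07%, with log2 ratios from -0.75 to -0.40 and a median of -0.67. In control seeds the short genes went from 6.52% to 8.18% and the long ones from 5.78% to 10.8%. Short and long leading genes thus ended at like shares in droughted seeds at day 50, while in control seeds the long ones led. Near-identical copies can share reads, so single members of these groups are less certain than their sums.

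BnaA03g06940D, 561 bases long, lost the most reads of all genes. It stood at 2062, 45778 and 14546 scaled CPM in droughted seeds at days 30, 40 and 50, and at 3617, 12012 and 16547 in control seeds. The drought value of day 40 was the highest of the 6 libraries, and those of day 50 were close in both treatments. In share of reads it went from 3.49% to 1.24% in droughted seeds, 2.25 points lower, and from 1.28% to 1.44% in control seeds. The scaled level was 3.15-fold lower at day 50 than at day 40, with a 95% counting interval of 3.13 to 3.16. No role is given for it, since its ID carries no name here.

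The set of leading genes was partly renewed by day 50. The 10 most abundant genes of days 40 and 50 in droughted seeds shared 9 members, and the gene that entered had ranked 12 at day 40. Of the 100 most abundant genes, 59 were shared. The 41 that entered had a median rank of 288 at day 40, and 1 of them had ranked 4703. Together they held 0.985% of drought reads at day 40 and 5.43% at day 50, against 0.552% and 1.79% in control seeds. These genes were chosen for their high level at day 50, so their gain in droughted seeds follows from the choice.

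Most genes that stood apart between days 40 and 50 in control seeds moved the same way in droughted seeds, and droughted seeds added many more. The 2 pairs share no library. Across 27412 genes with a mean of at least 5 scaled CPM over all 6 libraries, the log2 ratios of the 2 treatments correlated at 0.568 (Pearson) and 0.510 (Spearman). Within each pair the same 2 libraries underlie every gene, so this describes the libraries and has no p-value. Of 1739 genes (6.34%) at least 2-fold higher at day 50 in control, 913 (52.5%) were also at least 2-fold higher in droughted seeds, where 12.2% of all these genes were. Of 1738 genes (6.34%) at least 2-fold lower in control, 1088 (62.6%) were also lower in droughted seeds, where 15.1% of all were. Opposite 2-fold steps were seen for 84 genes, 44 higher in drought and lower in control and 40 the reverse.

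**Figure D2:**
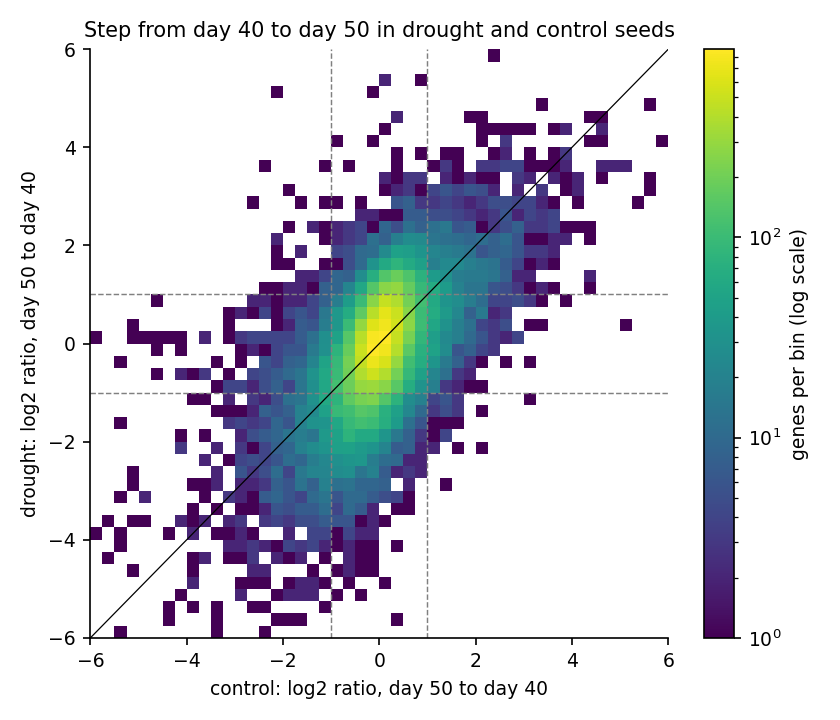
Each bin counts genes by their log2 ratio of day 50 to day 40 in control seeds (x axis) and in droughted seeds (y axis), with dashed lines at 2-fold and a solid line where both are equal. The cloud runs upward and is taller than wide, with standard deviations of 1.09 in drought and 0.78 in control over 27412 genes, of which 42 lie outside the axes.

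The genes that differed most in control mostly ran the same way in droughted seeds. The 431 genes 4 to 16-fold higher at day 50 in control had a median log2 ratio of 2.52 there and of 1.79 in droughted seeds, with 78.2% at least 2-fold higher in droughted seeds. The 35 genes over 16-fold higher in control had a drought median of 3.56, and 34 were at least 2-fold higher. For the 386 genes that stood 4 to 16-fold lower in control, the median was -2.43 there and -2.05 in droughted seeds. For the 50 genes that stood over 16-fold lower in control, the drought median was -2.94. Most of the genes that stood apart in droughted seeds were outside these classes. Of 3337 genes at least 2-fold higher in droughted seeds, 2380 (71.3%) were within 2-fold in control, as were 3009 (72.7%) of 4137 that were lower. The drought step was the larger of the 2 for 18376 of 27412 genes, or 67.0%. The drought and control steps differed by at least 2-fold for 21.7% of genes, with 2322 higher and 3627 lower in droughted seeds. These differences were not tested.

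Genes that stayed level to day 40 and stood high only at day 50 made up a small late class. A late rise was defined as a level at least 4-fold higher at day 50 than at day 40, after days 30 and 40 had been within 2-fold. In droughted seeds 236 of 27459 genes with a mean of at least 5 scaled CPM over the 3 drought libraries met it, or 0.859%. In control seeds 51 of 27128 genes did, or 0.188%. The 236 genes had median levels of 4.81, 4.26 and 25.7 scaled CPM in droughted seeds at days 30, 40 and 50. Together they held 0.165% of drought reads at day 40 and 0.999% at day 50. In the control libraries, which the choice did not use, their medians were 4.50, 4.46 and 9.16 scaled CPM. Of the 236, 213 stood higher at day 50 than at day 40 in control (90.3%), where 52.1% of the 27459 genes did, and 104 stood at least 2-fold higher (44.1%), where 6.91% of the 27459 genes were. Their median log2 ratio in control was 0.89, against 0.02 for all 27459 genes and 2.37 for themselves in droughted seeds. The late genes of droughted seeds thus mostly stood higher at day 50 in control too, and the larger drought value follows from their choice. They were long, with a median of 2061 bases against 1655 for all, and 39.4% were over 2500 bases against 22.9%. With the length trend described below removed, 17.3% of the late genes were over 2500 bases. With the control library of day 40 in place of the drought library, 582 genes met the definition.

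BnaC09g45170D, of 1101 bases, had the largest late rise among 54 late genes of at least 50 scaled CPM at day 50. It stood at 3.22, 2.67 and 68.5 scaled CPM in droughted seeds at days 30, 40 and 50, from 68, 21 and 876 reads. In control seeds it stood at 4.63, 1.08 and 1.46 scaled CPM. The drought library of day 50 was far above the other 5, which lay between 1.08 and 4.63. The level at day 50 was 25.6-fold that of day 40 in droughted seeds, with a 95% counting interval of 16.7 to 41.6.

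Reversal of the earlier step was counted for more genes in droughted than in control seeds. Reversal was counted where a gene was at least 2-fold apart from day 30 to day 40 and at least 2-fold apart the other way from day 40 to day 50. In droughted seeds 693 of 27459 genes stood higher and then lower (2.52%), and 479 lower and then higher (1.74%). In control seeds the counts were 165 (0.608%) and 78 (0.288%) of 27128. With at least 4-fold in both steps they were 87 and 48 in droughted seeds and 23 and 7 in control seeds. Both steps use the library of day 40, so anything particular to that library enters as a reversal, and the counts give no evidence of a reversal in the plants by themselves. With library totals alone the drought counts were 228 and 2058, so which course held more genes depended on the scaling. The minimum was then applied to levels without TMM factors, so the genes counted differ in part. With the control library of day 40 in place of the drought library they were 458 and 311. Under TMM scaling, genes that moved on in the same direction outnumbered those that reversed. Of 4015 genes at least 2-fold higher at day 40 than at day 30 in droughted seeds, 915 were higher again at day 50, 2407 stayed within 2-fold and 693 were lower. Of 2630 genes lower at day 40, 731 were lower again, 1420 stayed within 2-fold and 479 were higher.

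The 693 genes that stood higher and then lower held a large part of the reads. They held 3.03%, 19.2% and 7.52% of drought reads at days 30, 40 and 50, and 3.76%, 10.4% and 11.1% of control reads. Their median levels in droughted seeds were 8.01, 31.3 and 9.15 scaled CPM. At day 50, 446 of them (64.4%) were within 2-fold of day 30. In control seeds their medians were 10.5, 22.2 and 17.3 scaled CPM. In control 340 (49.1%) were at least 2-fold higher at day 40 than at day 30, where 9.28% of the 27459 genes were. From day 40 to day 50 in control, 123 (17.7%) were at least 2-fold lower, where 6.01% of the 27459 genes were. In control seeds, which the choice did not use, 249 of the 693 stood higher at day 50 than at day 40 (35.9%), where 52.1% of all 27459 did.

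Cole_newGene_5239, a new gene model of 1175 bases, was the clearest of the 243 genes of this course that reached 50 scaled CPM in a drought library. It stood at 1.75, 94.0 and 4.77 scaled CPM in droughted seeds at days 30, 40 and 50, from 37, 739 and 61 reads. In control seeds it stood at 0.964, 111 and 72.0 scaled CPM. The levels of day 40 were high in both treatments, and at day 50 drought was low while control stayed high. Its level in droughted seeds was 53.6-fold higher at day 40 than at day 30, with a counting interval of 38.5 to 76.8. It was then 19.7-fold lower at day 50, with an interval of 15.2 to 26.0.

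The 479 genes that stood lower and then higher were of middling level and, before the length trend described below was removed, long. Their medians in droughted seeds were 11.5, 3.69 and 12.6 scaled CPM at days 30, 40 and 50, and 10.3, 6.69 and 7.77 in control seeds. At day 50, 382 of them (79.7%) were within 2-fold of day 30 in droughted seeds. In control seeds 135 (28.2%) were at least 2-fold lower at day 40 than at day 30, where 4.85% of the 27459 genes were. From day 40 to day 50 in control, 37 were at least 2-fold higher (7.72%, against 6.91% of the 27459 genes). Another 36 were at least 2-fold lower (7.52%, against 6.01%). Higher by any amount were 285 of the 479 (59.5%), against 52.1% of all. The median log2 ratio of the 479 in control was 0.18, against 0.02 for all. At 2-fold the late recovery was thus near the background in control seeds, with a small lean to higher levels.

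BnaA07g27230D, of 2610 bases, was the clearest of 39 such genes that reached 50 scaled CPM. It stood at 72.5, 5.34 and 36.7 scaled CPM in droughted seeds at days 30, 40 and 50, from 1529, 42 and 469 reads. In control seeds it stood at 62.3, 20.6 and 3.15 scaled CPM, lower on each later day. The day 50 levels of the treatments were far apart, with drought higher. Its drought level was 13.6-fold lower at day 40 than at day 30 (counting interval 9.98 to 18.9) and then 6.86-fold higher at day 50 (5.0 to 9.65).

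**Figure D3:**
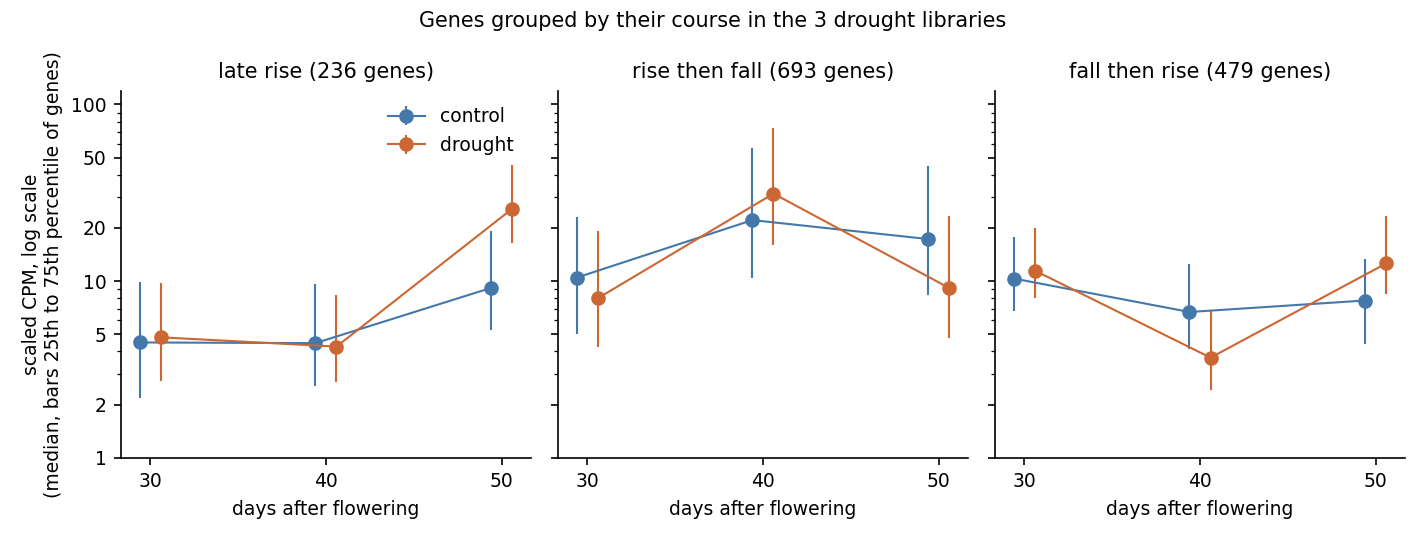
Scaled CPM on a log scale (y axis) against days after flowering (x axis) for the 236, 693 and 479 genes of the 3 courses; points are medians over genes, bars run from the 25th to the 75th percentile of genes, 1 library per point. The drought courses follow from the choice of genes. The control medians, which the choice did not use, go from 4.46 to 9.16, from 22.2 to 17.3 and from 6.69 to 7.77 between days 40 and 50.

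**Figure D4:**
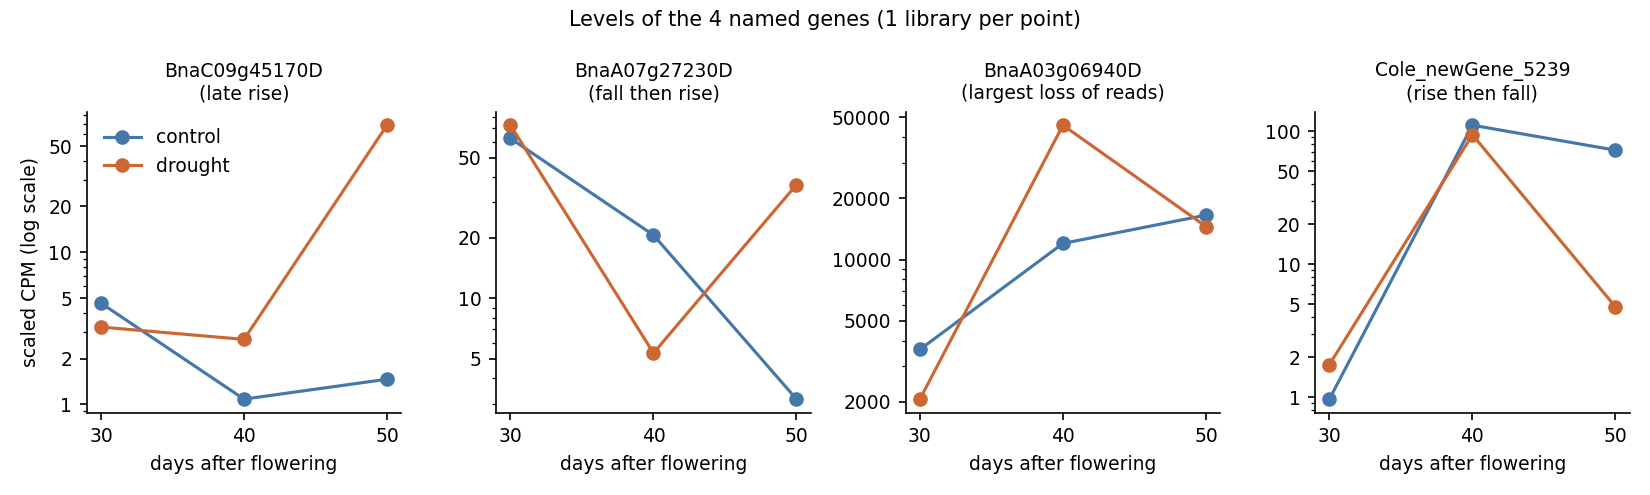
Scaled CPM on a log scale (y axis, own range in each panel) against days after flowering (x axis) for the 4 named genes, 1 library per point. Drought and control separate at day 50 for BnaC09g45170D (68.5 and 1.46) and Cole_newGene_5239 (4.77 and 72.0), and at day 40 for BnaA03g06940D (45778 and 12012). For BnaA07g27230D drought is under control at day 40 (5.34 and 20.6) and above it at day 50 (36.7 and 3.15).

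The drought step from day 40 to day 50 followed gene length, in the opposite sense to the step before it. The median log2 ratio was -0.73 over the 339 genes of up to 400 bases. The medians were -0.43 over 2007 genes of 401 to 700 bases, -0.33 over 3025 of 701 to 1000, -0.18 over 6275 of 1001 to 1500 and 0.05 over 9436 of 1501 to 2500. The 6330 genes over 2500 bases had a median of 0.42. From day 30 to day 40 the same classes ran the other way in droughted seeds, from 0.66 for the shortest to -0.28 for the longest. From day 30 to day 50, a pair that leaves out the day 40 library, the drought medians were 0.07 for the shortest and 0.18 for the longest. The difference of shortest minus longest was -1.15 for the step from day 40 to day 50, 0.94 for day 30 to day 40 and -0.12 for day 30 to day 50. In control seeds it was -0.27, -0.32 and -0.60 for these pairs. Set against the control library of day 40 instead, the drought library of day 50 had a difference of -0.17. With the authors' FPKM the difference from day 40 to day 50 was -0.34, in the same direction and smaller.

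**Figure D5:**
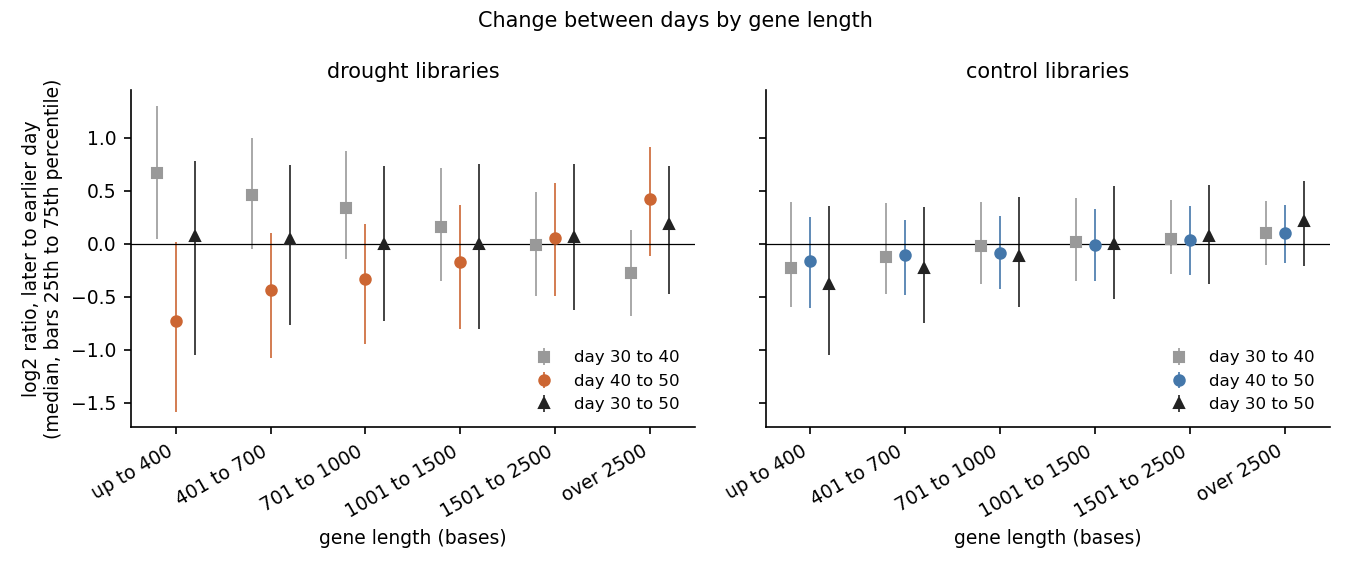
Median log2 ratio of the later to the earlier day (y axis; bars from the 25th to the 75th percentile of genes) by class of gene length in bases (x axis), for 3 pairs of days in drought and control libraries. In the drought panel the medians of day 40 to day 50 climb from -0.73 to 0.42 and those of day 30 to day 40 descend from 0.66 to -0.28, while those of day 30 to day 50 stay between -0.01 and 0.18.

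The trend was also present in genes that were within 2-fold in each of the 2 control steps. Over these 21758 genes, the drought medians from day 40 to day 50 ran from -0.58 for genes of up to 400 bases to 0.42 for genes over 2500 bases. In control seeds the set kept a smaller trend of the same sense, with a difference of shortest minus longest of -0.21 from day 40 to day 50 against -0.99 in droughted seeds. Leaving out the 1000 genes most abundant in control, the difference of shortest minus longest was -1.13. Across the 27412 genes the log2 ratio and log2 length had a Pearson correlation of 0.305 for the drought step and 0.089 for the control step, as a description of genes that share their libraries. Genes of up to 700 bases held 26.0% of drought reads at day 40 and 15.6% at day 50, against 14.7% and 16.6% of control reads. With the 100 genes most abundant in control left out, they held 10.8% and 8.43% in droughted seeds and 7.56% and 7.37% in control seeds.

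Length moved with the 2-fold groups and with the courses above. The 824 genes at least 4-fold higher at day 50 were near the genes of the pair in length. Their median was 1674 bases against 1646, with 23.7% over 2500 bases against 22.6%. The 942 genes at least 4-fold lower were shorter, with a median of 1080 bases. Of these 942, 45.3% were up to 1000 bases long, against 20.3% of the genes of the pair, and 6.37% were over 2500. Of the genes of up to 400 bases, 131 (38.6%) stood at least 2-fold lower at day 50 in droughted seeds and 23 (6.78%) at least 2-fold higher. Of those over 2500 bases, 347 (5.48%) stood lower and 1335 (21.1%) higher. Of the 693 genes that stood higher and then lower, 47.8% were up to 1000 bases long, against 19.9% of the 27459 genes, and 4.62% were over 2500 bases. Of the 479 that stood lower and then higher, 5.85% were up to 1000 bases and 45.3% over 2500, against 22.9% of all. With the length trend removed from each step, 511 genes stood higher and then lower, 403 lower and then higher, and 208 rose late. Of the original members, 441 of 693, 312 of 479 and 158 of 236 remained. Genes of up to 1000 bases then made up 30.1% of the first course, 19.1% of the second and 22.1% of the late rises. Genes over 2500 bases made up 16.8%, 18.9% and 17.3%, against 22.9% of all. The part of the length trend in the other results was not tested beyond these counts.

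Genes of both subgenomes took part in the step. Of 12640 A genes, 13.8% stood at least 2-fold higher at day 50 in droughted seeds and 13.8% lower. Of 13262 C genes, 14.0% stood higher and 12.2% lower. The median log2 ratios were 0.04 for A genes and 0.06 for C genes. New gene models stood higher more often than lower, with 184 of 808 (22.8%) higher and 88 (10.9%) lower, against 14.2% and 12.9% of all genes. By chromosome, the share of genes at least 2-fold apart ran from 24.8% on C05 to 28.2% on A03 and C02. A01 genes held 12.1% of drought reads at day 40 and 8.58% at day 50, and 4.20% and 4.33% of the reads left without the 100 genes most abundant in control. On A01 the lost reads thus belonged to those leading genes. Differences between subgenomes and chromosomes were not tested.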

How the data were processed

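For 6 libraries of seed RNA, the authors deposited raw gene counts with a gene length in 1 table, and a file per library of values read here as FPKM. Cufflinks is named, without a version, in the submitters' processing notes. The aligner, the genome build and whether counting used strand: not given in the sources used here. The FPKM of the authors' files, whose headers name no unit, were used only as an alternative. Libraries were scaled by TMM in edgeR 4.0.16 (R 4.3.3) over 46483 genes kept by filterByExpr. Log2 ratios used a prior of 0.5 reads, and genes entered with a mean of at least 5 scaled CPM over the libraries compared. With 1 library per treatment and day, no test was run. Intervals are 95% exact binomial (Python 3.11.15, scipy 1.17.1) and cover counting error only. Scripts were tested on simulated data.

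Members, gene groups and rules were chosen with earlier results of these data known. The printed genes are the late-rise gene of largest ratio, the clearest gene of each reversal by its smaller step, each from 50 scaled CPM, and the gene that lost most reads. Lists of genes by name could not be used. Alternatives were other scaling, priors, level minimums, larger steps, FPKM, length trend removal and, chosen after the data had been seen, another library in place of the day 40 drought library.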

Additional observations from a re-analysis of the deposited data

Results flagged for a closer look

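Several values went one way in droughted seeds and the other way in control seeds between days 40 and 50, with 1 library behind each point, and none of these differences was tested. The share of the 10 most abundant genes changed by -10.1 points in droughted seeds and 7.11 in control seeds. That of the 100 most abundant changed by -10.0 and 10.9 points. That of the 100 genes most abundant in the control libraries changed by -14.4 and 9.90 points, and the choice of this set used the control libraries. Reads of genes of up to 700 bases changed by -10.4 points in droughted seeds and 1.86 in control seeds. The number of genes that hold 50% of reads was 609 higher at day 50 in droughted seeds, while in control seeds it differed by -1145. The log2 ratio of day 50 to day 40 was 2.77 in droughted and -2.69 in control seeds for BnaA07g27230D, and -1.65 and 0.46 for BnaA03g06940D. The drought library of day 40 enters each drought value.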

How the results depend on the processing

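No paired analysis was possible because each treatment and day has 1 library. Counts of genes 2-fold higher and lower stayed within 1.5 times under other scaling, prior, FPKM and length removal. The minimum was applied to each setting's own levels (5 FPKM for FPKM), so the number of genes counted can differ between settings. A level minimum of 1 scaled CPM gave 7016 higher, 6931 lower, 610 late rises and 1514 and 1725 reversals (higher then lower, lower then higher). A minimum of 20 gave 1540, 1281, 66, 307 and 85. More genes enter at the lower minimum and genes drop out at the higher one, so these counts do not compare as shares. Larger steps (8-fold late, 4-fold reversal) gave 45, 87 and 48. Library totals alone gave 228 and 2058 reversals, so which reversal was the more frequent depended on scaling. FPKM gave 720 genes lower then higher, against 746 higher then lower. With the control library of day 40 in place of the drought library, which also changes treatment, there were 582 late rises and 458 and 311 reversals. The length difference (shortest minus longest) was -1.20 with library totals, -1.08 with a prior of 5 reads, -1.10 and -0.97 at minimums of 1 and 20 scaled CPM, -0.34 with FPKM and -0.17 with the control library of day 40; the cause was not tested. The correlation with the control step was 0.555 with library totals, 0.561 with totals without the 100 most abundant genes, 0.564 with a prior of 5 reads, 0.442 and 0.631 at minimums of 1 and 20, and 0.384 with FPKM. The loss of share per base of gene length was -14.7 points for the 10 most abundant genes, -12.2 for the 100 and -16.9 for the 100 chosen in control. With FPKM it was -9.81, -4.70 and -16.9. Against day 30 in place of day 40 these shares were 11.8, 19.6 and 16.1 points higher at day 50, so the loss is relative to day 40 alone. The lower depth of day 40 limits genes near the minimum.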
